A study of Homo sapiens with 4 samples.

Results

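The genes described here are 10 keratins measured by RNA sequencing in MDA-MB-453 cells with reduced TMEM9 (TMEM9 KD) and in wild-type MDA-MB-453 cells (WT). They were taken by symbol from a table of 48162 genes: KRT7, KRT8 and KRT18 as keratins of simple epithelia, and KRT5, KRT6A, KRT14, KRT17, KRT75, KRT80 and KRT81 as basal or stress keratins. The name basal or stress is a label for the class. In it, KRT75 and KRT81 are keratins of the hair follicle and hair, and KRT80 is one of stratified and some glandular epithelia. The 10 genes were chosen with their values in these same libraries known. Their differences between TMEM9 KD and WT are therefore given as a description, with no test. MDA-MB-453 is an established human breast cancer line, and TMEM9 is a membrane protein of endosomes and lysosomes. Each group had 2 libraries of total RNA, and the genotype was the only labelled difference between them. The labels do not say how TMEM9 was reduced, whether the TMEM9 KD cells were 1 clone, or whether libraries of the same genotype came from different cultures. Any p-value therefore reflects the spread among these 4 libraries alone, and that spread may be technical.

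Keratins are the intermediate filament proteins of epithelial cells. A filament is built from pairs of an acidic type I and a basic type II keratin, and the pair in use marks the kind of epithelium: KRT8 with KRT18 in simple and glandular epithelia, KRT5 with KRT14 in the basal layer of stratified epithelia and in the basal layer of the breast. KRT6A, KRT16 and KRT17 are induced when squamous epithelia are wounded or stressed, and in breast cancer KRT5, KRT14 and KRT17 are used as markers of a basal-like state.

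The TMEM9 KD libraries held 15960941 and 17065126 counts and the WT libraries 15323843 and 18517337. TMEM9 itself had 51 and 78 counts in TMEM9 KD, against 1120 and 1497 in WT, a log2 fold change of -4.37 (SE 0.126). Levels below are CPM, counts rescaled to library size with TMM factors over the 14923 genes with enough counts to test. By the quasi-likelihood test of edgeR, 57.7% of these genes had an adjusted p below 0.05, 28.7% higher and 29% lower in TMEM9 KD, so a call alone sets a gene apart from few others. Scaled by library size only, 5030 genes were higher and 3730 lower in TMEM9 KD, in place of 4283 and 4335.

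The line's own markers were only partly present. ERBB2, a receptor kinase, had 873 and 969 counts in TMEM9 KD and 951 and 1146 in WT. KRT19, a simple keratin of luminal breast cells, had 1 and 4 counts in TMEM9 KD and 6 and 2 in WT. EPCAM, the epithelial adhesion molecule, had 8 and 4 counts in TMEM9 KD and 4 and 9 in WT. TFF3 and SPDEF, both luminal genes, had at most 1 and 2 counts in any library. KRT19, EPCAM, TFF3 and SPDEF were thus at or near 0 in both groups, while VIM, the mesenchymal filament protein, had 1850 and 1740 CPM in TMEM9 KD and 1340 and 1360 CPM in WT.

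All 10 keratins passed the filter on low counts, KRT5, KRT6A and KRT14 through their WT libraries alone. In 4 of them both TMEM9 KD libraries lay above both WT libraries, in 5 both lay below, and in 1 the groups overlapped. Over all genes tested, 39.1% lay wholly above and 38.5% wholly below, and as the 10 genes were chosen on this contrast nothing is read from the count. The 5 lower keratins were at least 2-fold lower in TMEM9 KD, as were 10.4% of all genes tested, and 4 of them were at least 8-fold lower, as were 2.51% of all genes tested. KRT5, KRT6A and KRT14 are among these 4, so their entry and their fold rest on the same WT counts. The median log2 fold change was 0.45 for the 3 simple keratins and -1.31 for all 10, beside 0.01 for all genes tested. For the 7 basal or stress keratins the median was -4.66 as fitted, and -3.36 with keratins at 0 counts placed at their bound.

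**Figure D1:**
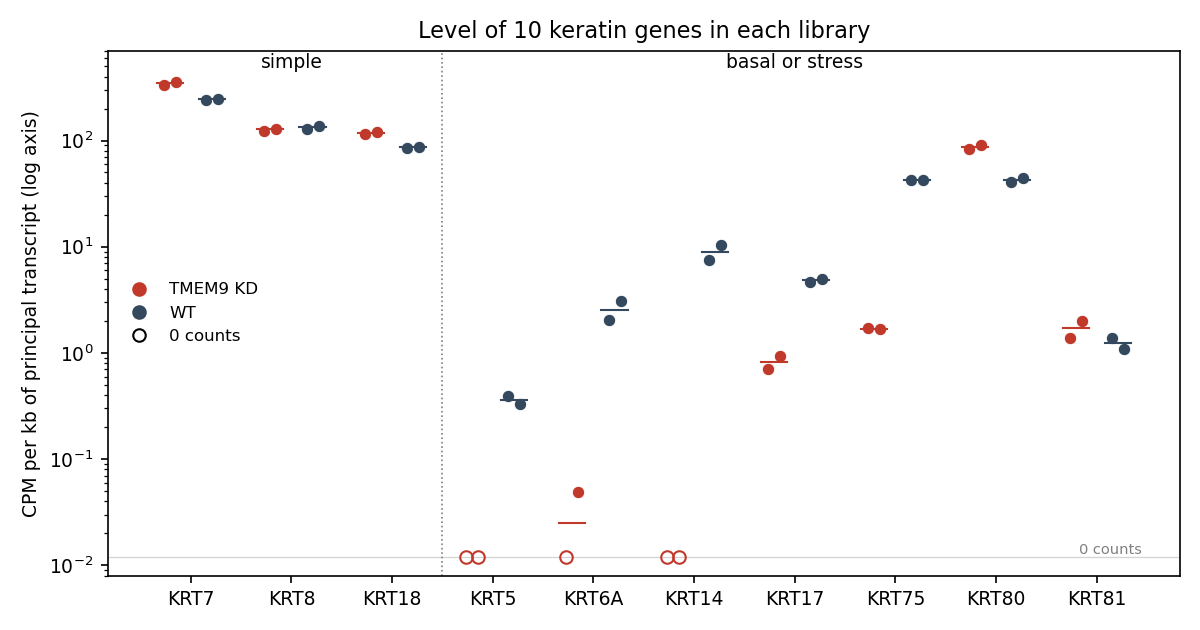
CPM per kilobase of principal transcript for each of the 10 keratins in the 2 TMEM9 KD and 2 WT libraries, on a log axis, with group means as bars and libraries at 0 counts as open circles on the grey line. KRT7, KRT18 and KRT80 lie higher in TMEM9 KD, KRT8 overlaps, and KRT5, KRT6A, KRT14, KRT17 and KRT75 lie lower in TMEM9 KD, while KRT81 all but touches.

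Among the simple keratins, KRT7, a type II keratin of glands and ducts, had 581 and 627 CPM in TMEM9 KD and 419 and 436 CPM in WT. Both TMEM9 KD libraries were above both WT libraries, and the fitted level was 1.41-fold higher in TMEM9 KD (log2 fold change 0.50, SE 0.0543). KRT18, the type I partner of KRT8, had 179 and 187 CPM in TMEM9 KD and 132 and 136 CPM in WT. This was 1.36-fold higher in TMEM9 KD (log2 fold change 0.45, SE 0.0638), again with no overlap. KRT8, the main type II keratin of simple epithelia, did not follow its partner: it had 264 and 274 CPM in TMEM9 KD and 273 and 292 CPM in WT, with overlapping groups. Its log2 fold change was -0.07 (SE 0.0582), a size close to its own error.

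Divided by transcript length, the ratio of KRT8 to KRT18 was 1.08 in both TMEM9 KD libraries, against 1.52 and 1.57 in WT. The type II to type I balance of this pair was thus nearer to equal in TMEM9 KD in each library. The ratio of KRT7 to KRT8, both type II, was 2.67 and 2.77 in TMEM9 KD and 1.86 and 1.81 in WT. KRT8 and KRT18 are neighbours with overlapping exons on opposite strands in the GENCODE 29 annotation. No source used here gives the strand setting of the deposited counts, so reads from that overlap cannot be assigned with certainty. In bulk RNA, fewer cells with a transcript and less of it per cell cannot be told apart, and this holds for every keratin below.

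KRT5 and KRT14, the filament pair of basal keratinocytes and of basal breast epithelium, were at 0 counts in both TMEM9 KD libraries. KRT14 had 185 and 307 counts in WT, or 12.4 and 17.1 CPM. Against a floor of 3 counts over the TMEM9 KD group it was at least 168-fold lower in TMEM9 KD. KRT5 was near the limit of detection in WT as well, with 15 counts in each library, or 1.00 and 0.834 CPM. It was at least 10.3-fold lower in TMEM9 KD. The partners were unequal in WT: per kilobase of transcript, KRT14 stood at 7.44 and 10.3 CPM and KRT5 at 0.396 and 0.33 CPM. A count of 0 in a library allows up to 0.183 and 0.172 CPM in the TMEM9 KD libraries, by counting error only.

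KRT6A, a type II keratin induced in wounded epithelium, had 0 and 2 counts in TMEM9 KD and 70 and 128 in WT, or 4.68 and 7.12 CPM in WT. The WT to TMEM9 KD ratio was 102, with an exact 95% counting interval of 27.8 to 846. The 2 counts came from 1 library: the fitted log2 fold change was -9.62 without TMEM9 KD replicate 2 and -5.61 without TMEM9 KD replicate 1. KRT17, the type I stress keratin, was lower but still present, with 1.16 and 1.55 CPM in TMEM9 KD and 7.76 and 8.29 CPM in WT. It was 5.89-fold lower in TMEM9 KD (log2 fold change -2.56, SE 0.26). Of the 5 lower keratins, KRT17 thus kept the largest share of its WT level.

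KRT75, a type II keratin of the companion layer of the hair follicle, was the most abundant of the 5 in WT per kilobase. It had 65 and 68 counts in TMEM9 KD and 1492 and 1779 in WT, which is 3.97 and 3.90 CPM in TMEM9 KD against 99.8 and 99.0 CPM in WT. It was 25.2-fold lower in TMEM9 KD (log2 fold change -4.66, SE 0.116). The libraries of each group differed little, with an SD of 0.0525 CPM in TMEM9 KD and 0.58 CPM in WT (n = 2 each).

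Among the lower keratins, the sequence before the gene start was at hand for KRT5 and KRT75, which lie in the same type II cluster. The 250 bases upstream of each start are shown because both genes were lower in TMEM9 KD and share a short A-rich element near the start. They are from RefSeq, build GRCh38.p14, minus strand, read 5′ to 3′, at chr12:52520395-52520644 for KRT5 and chr12:52434372-52434621 for KRT75. Capitals mark ATAAAA in both and, in KRT5, also the match AGGCATGCCC to the decamer of the p53 family, which includes p63.
KRT5: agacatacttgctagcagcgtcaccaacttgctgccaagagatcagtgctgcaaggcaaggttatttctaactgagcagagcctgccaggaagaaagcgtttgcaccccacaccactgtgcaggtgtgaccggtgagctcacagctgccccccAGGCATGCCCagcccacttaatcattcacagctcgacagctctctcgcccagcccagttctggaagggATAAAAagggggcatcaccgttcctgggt
KRT75: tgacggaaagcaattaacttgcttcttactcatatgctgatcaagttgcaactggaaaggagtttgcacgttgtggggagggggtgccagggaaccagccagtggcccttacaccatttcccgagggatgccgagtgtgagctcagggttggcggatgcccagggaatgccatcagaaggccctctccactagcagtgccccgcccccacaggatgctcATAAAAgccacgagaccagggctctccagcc

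ATAAAA, searched on the gene's strand and chosen after these sequences were read, began 29 bases before the start of KRT5 and 31 before that of KRT75. It occurred in 9.19% of the 27305 upstream windows of the same length. TATAAA, on the gene's strand, was in neither (7.17% of windows), and the AP-1 element TGANTCA, on both strands, was in neither (6.6% of windows). The p53-family decamer, on both strands, began 97 bases before the start of KRT5 and was not in the KRT75 window; 5.53% of windows held it. The window of KRT8 at its listed start, on chromosome 12 as well, held a p53-family decamer 136 bases before the start and no ATAAAA. That listed start may not be the main start of KRT8, so its window is not compared with those of KRT5 and KRT75. A match is only a string of letters, and these windows say nothing of what binds there.

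KRT80 and KRT81 went against the other basal or stress keratins. KRT80, a type II keratin of stratified and some glandular epithelia, had 324 and 353 CPM in TMEM9 KD and 158 and 171 CPM in WT. It was 2.06-fold higher in TMEM9 KD (log2 fold change 1.04, SE 0.0605), the largest upward difference among the 10 keratins. KRT81, a type II hair keratin, had 2.69 and 3.90 CPM in TMEM9 KD and 2.68 and 2.11 CPM in WT. Its groups were all but touching, with 44 and 68 counts in TMEM9 KD and 40 and 38 in WT. The log2 fold change of 0.47 (SE 0.30) was 0.17 without TMEM9 KD replicate 2, 0.30 without WT replicate 2 and 0.72 without TMEM9 KD replicate 1. The higher reading of KRT81 thus came mostly from 1 library.

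Near-identical copies limit some of these counts. Of the 50-base stretches in the protein-coding transcripts of KRT81, 43.7% also occur in another gene, mostly KRT86. For KRT6A the share was 39.1%, mostly with KRT6C and KRT6B, for KRT18 it was 24.0%, and for KRT14 it was 23.8%. It was 13.8% for KRT8 and 12.2% for KRT17. KRT5, KRT7, KRT75 and KRT80 were nearly unique, with 3.24%, 0.992%, 0.044% and 0.411%. No source used here says how the authors' counting treated reads that match several genes, so values of KRT81, KRT6A, KRT18 and KRT14 are the less certain ones.

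Per kilobase, the order of levels changed below the simple keratins. In TMEM9 KD the order was KRT7, KRT8, KRT18 and KRT80, with means of 345, 127, 117 and 87.7 CPM per kilobase. KRT81 and KRT75 followed at 1.71 and 1.69, and these neighbours overlapped between libraries. KRT17 was next at 0.82, and KRT6A, KRT5 and KRT14 were at or near 0 and could not be ordered. In WT, KRT7, KRT8 and KRT18 again led, with means of 244, 133 and 86.0 CPM per kilobase. KRT75 and KRT80 came next at 42.8 and 42.6, with overlapping libraries, then KRT14 at 8.86, KRT17 at 4.86, KRT6A at 2.55, KRT81 at 1.24 and KRT5 at 0.363. KRT75 and KRT80, equal in level in WT, were thus far apart in TMEM9 KD.

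Summed per kilobase over 54 keratin genes, the keratin transcript pool was 679 and 726 CPM per kilobase in TMEM9 KD and 572 and 599 in WT. The 10 keratins made up 96.8% of it in both TMEM9 KD libraries and 96.5% and 96.7% in WT. KRT7, KRT8 and KRT18 together took 83.9% and 83.6% in TMEM9 KD and 79.0% and 78.9% in WT. Simple keratins were therefore the bulk of the pool in both groups. The 7 basal or stress keratins took 12.9% and 13.2% in TMEM9 KD and 17.5% and 17.8% in WT. Within that class the makeup differed far more than the total. KRT5, KRT6A, KRT14, KRT17 and KRT75, a subset chosen after their values were seen, took 0.355% and 0.367% in TMEM9 KD and 10.1% and 10.2% in WT. KRT80 alone took 12.4% and 12.6% in TMEM9 KD and 7.16% and 7.37% in WT.

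The ratio of the 3 simple to the 7 basal or stress keratins was 6.49 and 6.31 in TMEM9 KD and 4.53 and 4.44 in WT, a log2 difference of 0.51 between TMEM9 KD and WT. KRT80 carries much of the second sum, and its transcript is the longest of the 10. With counts not divided by length the log2 difference was 0.09. Against the subset of 5 lower keratins, the ratio of simple keratins was 236 and 228 in TMEM9 KD and 7.86 and 7.71 in WT, a log2 difference of 4.90. The type II to type I ratio of the whole pool was 4.03 and 4.09 in TMEM9 KD and 4.06 and 4.05 in WT, with overlapping groups.

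**Figure D2:**
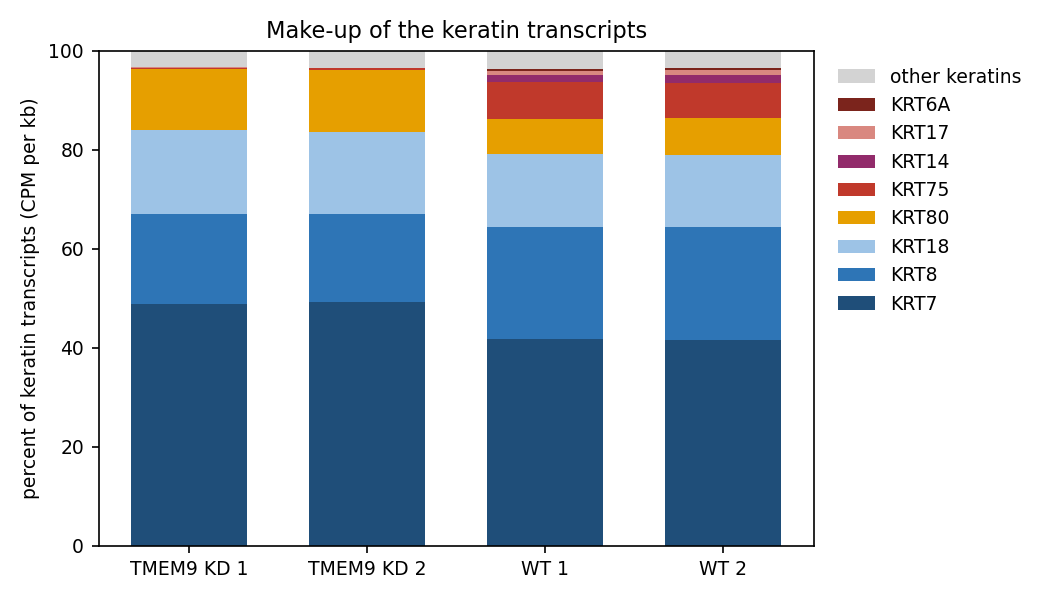
Share of the keratin transcript pool, in percent of CPM per kilobase over 54 keratin genes, taken by named keratins in each TMEM9 KD and WT library. KRT7 takes 48.8% and 49.3% in TMEM9 KD against 41.8% and 41.5% in WT, KRT80 takes the larger share in TMEM9 KD, and KRT75 takes 0.252% and 0.231% in TMEM9 KD against 7.51% and 7.11% in WT.

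Of the other 44 keratin genes, 22 were at 0 counts in every library and only 5 had enough counts to test. By edgeR's quasi-likelihood test, 1 of these rose, 3 fell and 1 was not called. Over all genes tested, 28.7% rose and 29% fell. KRT16, the type I partner of KRT6A in stressed epithelium, fell, with 5 and 2 counts in TMEM9 KD and 41 and 50 in WT (log2 fold change -3.69, SE 0.53, adjusted p = 2.95e-09). KRT16 passed the filter on low counts through its WT libraries alone, so its call and its fold rest on the same WT counts. Without TMEM9 KD replicate 1 its log2 fold change was -4.50. KRT16 shares 19.9% of its 50-base stretches with other genes, KRT14 among them. KRT86, a type II hair keratin, fell as well, with 17 and 13 counts in TMEM9 KD and 50 and 63 in WT (log2 fold change -1.94, SE 0.364, adjusted p = 2.76e-06 by edgeR). Its near-copy KRT81 did not fall, and 37.5% of the 50-base stretches of KRT86 are shared.

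KRT79, a type II keratin, also fell, with 26 and 22 counts in TMEM9 KD and 62 and 57 in WT (log2 fold change -1.35, SE 0.326, edgeR adjusted p = 0.000217). KRT10, the type I keratin of suprabasal epidermis, rose, with 39.5 and 42.3 CPM in TMEM9 KD and 26.8 and 27.9 CPM in WT (log2 fold change 0.58, SE 0.0981, edgeR adjusted p = 2.46e-07). The call of KRT10 ended in a test against a 1.5-fold change (edgeR adjusted p = 0.771), as did that of its antisense gene KRT10-AS1 (edgeR adjusted p = 0.454). Its exons overlap those of KRT10-AS1, which also rose (log2 fold change 0.66, edgeR adjusted p = 7.03e-05), and without a known strand setting reads of this pair cannot be told apart. KRT15, another basal type I keratin, had 68 and 79 counts in TMEM9 KD and 96 and 94 in WT and did not pass the test (edgeR adjusted p = 0.0977). KRT6B had 0 counts in both TMEM9 KD libraries and 4 in each WT library.

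Along chromosome 12, where 27 keratin genes lie in GENCODE 29, genes higher in TMEM9 KD lay on both sides of the lower ones. KRT80 and KRT7 stand next to each other at one end and were both higher in TMEM9 KD, and KRT8 and KRT18 stand at the other end. KRT75, KRT6A and KRT5, all lower, lie between them, with KRT6B and KRT6C among them. KRT79, which fell, lies on the side of KRT8. KRT86, which fell, comes between KRT7 and KRT81 when genes are ordered by lowest coordinate. Its annotated span overlaps both of them, with no shared exons. Along chromosome 17, with 28 keratin genes, KRT14, KRT16 and KRT17 are neighbours and all were lower in TMEM9 KD.

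**Figure D3:**
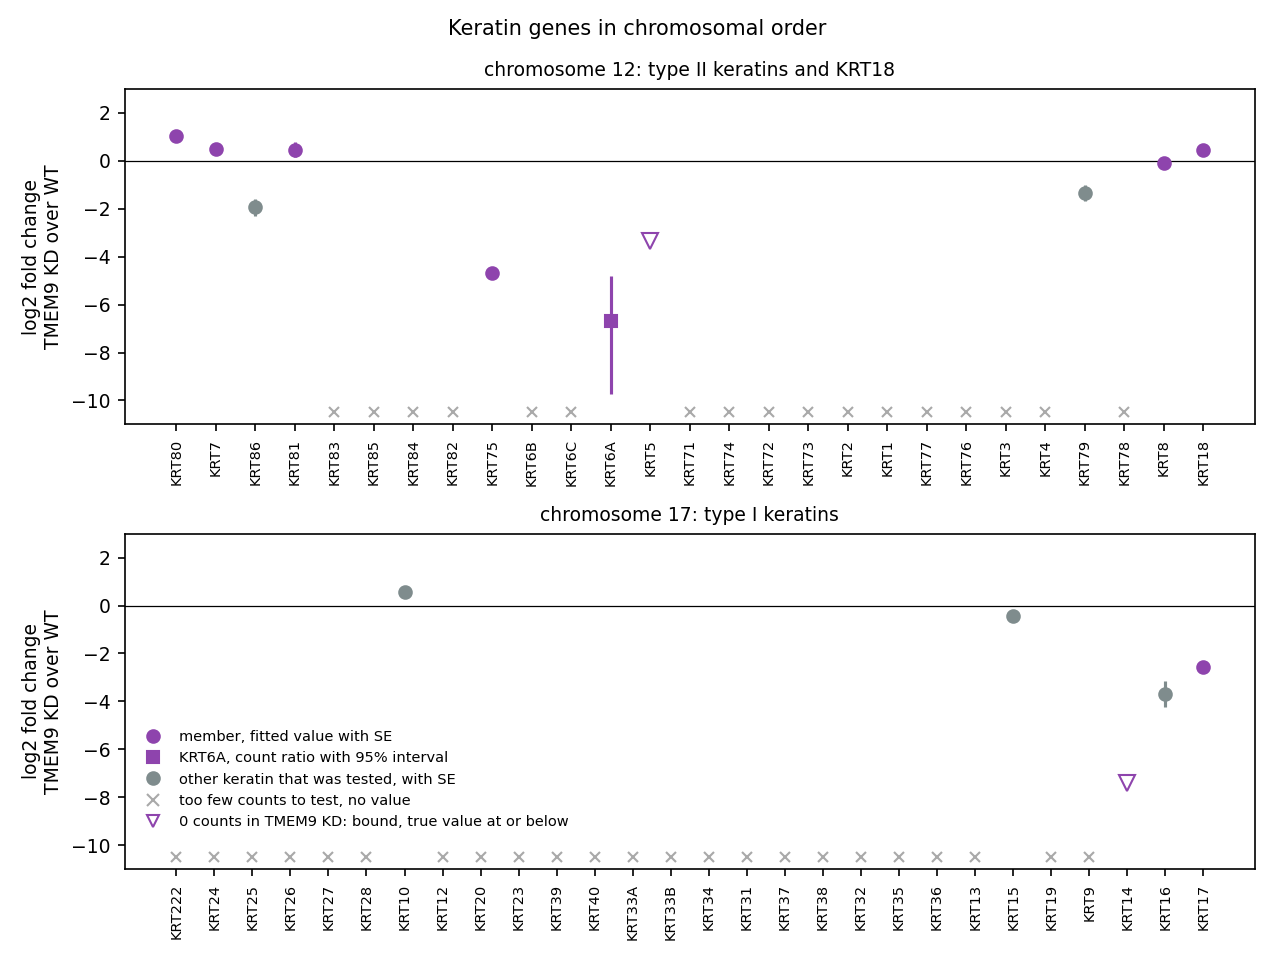
Log2 fold change of TMEM9 KD over WT for keratin genes in their order along chromosomes 12 and 17, with SE bars, an exact 95% counting interval for KRT6A, open triangles for bounds of genes at 0 counts in TMEM9 KD, and crosses for genes with too few counts to test. KRT14, KRT16 and KRT17 lie side by side below 0, and KRT75, KRT6A and KRT5 lie between the higher KRT80 and KRT7 and the KRT8 and KRT18 pair.

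Genes with the most similar pattern over the 4 libraries were sought for the 6 keratins with a mean of at least 5 CPM, among 10683 non-keratin genes at that level. The measure was the root mean square difference of centred log2 CPM. KRT75 was nearest to CD70 at 0.02 and to FBLIM1 at 0.087. CD70 had 11 and 12 counts in TMEM9 KD and 292 and 351 in WT. KRT14 was nearest to SHISA2 at 0.08, which had 2 counts in each TMEM9 KD library and 376 and 544 in WT. The next gene to KRT14 was MID1IP1 at 0.239. As KRT14 is at 0 counts in TMEM9 KD, its distances depend on the prior count of 2 used for log2 CPM. KRT80 was nearest to TMCO4 at 0.006, KRT7 to TTLL12 at 0.009, KRT18 to PABPC4 at 0.007 and KRT8 to PHLPP1 at 0.007. With only 4 libraries in 2 groups, these distances mostly reflect the size of the difference between groups.

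Keratin filaments attach to desmosomes and are bound by linkers and regulators. Of the 12 such genes tested, 5 rose, 6 fell and 1 was not called by edgeR. Of all genes tested, 28.7% rose and 29% fell. Against a 1.5-fold change, 4 of the list kept their call, 1 higher and 3 lower in TMEM9 KD. The median log2 fold change was -0.38 for the list, beside 0.01 for all genes. PKP2, a desmosomal plaque protein, had 5 and 10 counts in TMEM9 KD and 47 and 41 in WT (log2 fold change -2.59, SE 0.459, edgeR adjusted p = 8.49e-07). PKP2 passed the filter on low counts through its WT libraries alone. FAM83H, which recruits a kinase to keratin filaments, fell to 8.98 and 9.34 CPM in TMEM9 KD, against 46.1 and 47.9 CPM in WT (log2 fold change -2.36, SE 0.116, edgeR adjusted p = 7.4e-34). DSP, desmoplakin, which ties keratins to desmosomes, fell less (log2 fold change -0.76, SE 0.083, edgeR adjusted p = 1.69e-13). TCHP, trichoplein, a keratin filament binding protein, rose to 52.3 and 55.6 CPM in TMEM9 KD, against 29.6 and 30.8 CPM in WT (log2 fold change 0.84, SE 0.0916, edgeR adjusted p = 1.49e-13).

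Of 8 intermediate filament genes other than keratins, 4 rose, 1 fell and 3 were not called by edgeR. Their median log2 fold change was 0.28, and over all genes tested 28.7% rose and 29% fell. VIM rose by a log2 fold change of 0.41 (SE 0.0488, edgeR adjusted p = 3.89e-12), about the size seen for KRT7 and KRT18. SYNM, synemin, had 16.2 and 15.9 CPM in TMEM9 KD and 11.9 and 11.7 CPM in WT (log2 fold change 0.44, edgeR adjusted p = 0.00488), and LMNB2, a nuclear lamin, had a log2 fold change of 0.36 (edgeR adjusted p = 7.26e-08). NES, nestin, was the one that fell, with 13 and 22 counts in TMEM9 KD and 35 and 36 in WT (log2 fold change -1.06, edgeR adjusted p = 0.0188). The calls of VIM, SYNM, LMNB2 and NES ended in a test against a 1.5-fold change (edgeR adjusted p = 1 for VIM, SYNM and LMNB2 and 0.175 for NES). The call of SYNM ended without WT replicate 2 (edgeR adjusted p = 0.0512), and that of NES ended without WT replicate 1, WT replicate 2 or TMEM9 KD replicate 1 (edgeR adjusted p = 0.137, 0.0584 and 0.152) and with DESeq2 (adjusted p = 0.0988).

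Of 20 epithelial transcription factors tested, 7 rose, 11 fell and 2 were not called by edgeR. Their median log2 fold change was -0.31, and over all genes tested 28.7% rose and 29% fell. TP63, the regulator of basal epithelial keratins, was picked here after its value was seen: it had 33.5 and 31.5 CPM in TMEM9 KD and 156 and 155 CPM in WT (log2 fold change -2.26, SE 0.0771, edgeR adjusted p = 4.26e-46). EHF, an epithelial ETS factor, fell to 2.69 and 4.24 CPM in TMEM9 KD, against 66.2 and 62.1 CPM in WT (log2 fold change -4.20, SE 0.134, edgeR adjusted p = 1.6e-48). ELF3, a related ETS factor, had 6 and 9 counts in TMEM9 KD and 50 and 63 in WT (log2 fold change -2.93, SE 0.421, edgeR adjusted p = 3.12e-09). ELF3 passed the filter on low counts through its WT libraries alone. Among those that rose was FOXA1, the luminal pioneer factor, with 123 and 144 counts in TMEM9 KD and 44 and 49 in WT (log2 fold change 1.48, SE 0.223, edgeR adjusted p = 1.36e-08).

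Genes of squamous differentiation and of basal breast cells other than keratins give the setting of the lower keratins. Of 10 squamous genes tested, 2 rose, 6 fell and 2 were not called by edgeR. Their median log2 fold change was -1.44, and over all genes tested 28.7% rose and 29% fell. Of the 32 listed, 8 were at 0 counts in every library, LORICRIN, SPRR1A, SPRR1B and SPRR3 among them. The summed level of the 32 was 166 to 173 CPM in TMEM9 KD and 295 to 296 CPM in WT. S100A9, a calprotectin subunit, had 43 and 51 counts in TMEM9 KD and 864 and 1039 in WT (log2 fold change -4.37, edgeR adjusted p = 1.15e-48). Its partner subunit S100A8 fell by a like amount (log2 fold change -4.33, edgeR adjusted p = 5.37e-40). PI3, elafin, an elastase inhibitor, had 7 and 17 counts in TMEM9 KD and 293 and 353 in WT (log2 fold change -4.78, edgeR adjusted p = 9.51e-34). Without TMEM9 KD replicate 2 the log2 fold change of PI3 was -5.50. SBSN, suprabasin, went the other way, with 22 and 19 counts in TMEM9 KD and 1 and 2 in WT, a TMEM9 KD to WT ratio of 13.3 with an exact 95% counting interval of 4.24 to 67.2. SBSN passed the filter on low counts through its TMEM9 KD libraries alone.

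Of 19 basal and myoepithelial genes tested, 1 rose, 14 fell and 4 were not called by edgeR. Against a 1.5-fold change, 8 kept their call, all lower in TMEM9 KD. Their median log2 fold change over all 19 was -0.69, and over all genes tested 28.7% rose and 29% fell. The summed level of the list was 1580 CPM in each TMEM9 KD library and 2320 to 2380 CPM in WT. ITGB4, the integrin subunit of hemidesmosomes that anchors KRT5 and KRT14 filaments in skin, had 50 and 38 counts in TMEM9 KD and 1527 and 1825 in WT (log2 fold change -5.29, SE 0.126, edgeR adjusted p = 9.6e-59). COL17A1, the hemidesmosomal collagen, fell to 6.60 and 8.54 CPM in TMEM9 KD, against 87.8 and 88.8 CPM in WT (log2 fold change -3.54, SE 0.108, edgeR adjusted p = 4.2e-50). NGFR, a receptor used as a basal breast marker, had 7 and 8 counts in TMEM9 KD and 655 and 738 in WT (log2 fold change -6.56, SE 0.209, edgeR adjusted p = 1.57e-48). CDH3, P-cadherin, had 6 and 8 counts in TMEM9 KD and 192 and 221 in WT (log2 fold change -4.90, SE 0.291, edgeR adjusted p = 3.21e-28). These 4 had the largest log2 fold changes of the list, all downward. Of them, NGFR and CDH3 passed the filter on low counts through their WT libraries alone. MYLK, named after its value was seen, was the 1 that rose (log2 fold change 0.44, SE 0.0919, edgeR adjusted p = 2.45e-05). Its call ended against a 1.5-fold change. The 4 not called were EGFR, MYH11, OXTR and TAGLN, with log2 fold changes of 0, -0.12, 0.65 and -0.39.

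Of 13 luminal and apocrine genes tested, 4 rose, 5 fell and 4 were not called by edgeR. Their median log2 fold change was -0.23, and over all genes tested 28.7% rose and 29% fell. Against a 1.5-fold change, 4 of the list kept their call, 3 higher and 1 lower in TMEM9 KD. Summed levels of the list were 291 to 296 CPM in TMEM9 KD and 336 to 347 CPM in WT. MLPH, a melanosome transport protein found in luminal breast cells, had 0 and 3 counts in TMEM9 KD and 78 and 66 in WT, a WT to TMEM9 KD ratio of 49.3 with an exact 95% counting interval of 16.5 to 242. MLPH passed the filter on low counts through its WT libraries alone. The fitted log2 fold change of MLPH was -4.62 without TMEM9 KD replicate 1 and -9.18 without TMEM9 KD replicate 2. FOXC1, a forkhead factor better known from basal-like tumours, rose, with 23.8 and 25.0 CPM in TMEM9 KD and 8.49 and 11.0 CPM in WT (log2 fold change 1.31, SE 0.134, edgeR adjusted p = 8.21e-15). ERBB2, named above, had a log2 fold change of -0.23 (edgeR adjusted p = 0.0126). Its call ended without WT replicate 1 or WT replicate 2 (edgeR adjusted p = 0.104 and 0.115), when only library size was used for scaling (edgeR adjusted p = 0.098) and against a 1.5-fold change (edgeR adjusted p = 1). KRT7 and KRT18 were thus higher in TMEM9 KD beside a luminal list that moved in both directions.

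Markers of leukocytes, fibroblasts and endothelium were included as a check for other cells. Of 9 tested, 5 rose and 4 fell by edgeR, beside 28.7% and 29% of all genes tested. Against a 1.5-fold change, 5 kept their call, 2 higher and 3 lower in TMEM9 KD. Summed levels over all 18 matched markers were 1390 to 1570 CPM in TMEM9 KD and 1840 to 1880 CPM in WT. Among leukocyte markers, CD3E and LYZ were at 0 in every library. PTPRC, picked after its value was seen, had 72 and 70 counts in TMEM9 KD and 34 and 50 in WT (log2 fold change 0.72, edgeR adjusted p = 0.018). The call of PTPRC ended without WT replicate 1 or TMEM9 KD replicate 1 (edgeR adjusted p = 0.141 and 0.0676), with DESeq2 (adjusted p = 0.104) and against a 1.5-fold change (edgeR adjusted p = 0.449). CD14 had 12 and 29 counts in TMEM9 KD and 93 and 150 in WT (log2 fold change -2.59, edgeR adjusted p = 1.17e-13), and its log2 fold change was -3.32 without TMEM9 KD replicate 2. Much of the sum was collagen, and the collagens went opposite ways. COL1A1, picked after its value was seen, rose to 1300 and 1470 CPM in TMEM9 KD, against 815 and 832 CPM in WT (log2 fold change 0.75, SE 0.0518, edgeR adjusted p = 4.64e-24). COL3A1, also a fibroblast collagen, fell to 27.7 and 34.5 CPM in TMEM9 KD, against 947 and 966 CPM in WT (log2 fold change -4.94, SE 0.0705, edgeR adjusted p = 1.36e-77). THY1, a fibroblast surface protein, fell as well (log2 fold change -3.21, SE 0.269, edgeR adjusted p = 3.47e-19). LUM, lumican, had 28 and 21 counts in TMEM9 KD and 0 and 2 in WT, and passed the filter on low counts through its TMEM9 KD libraries alone. Markers of other cells thus moved in both directions beside the keratins, and their part in the keratin values was not tested.

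**Figure D4:**
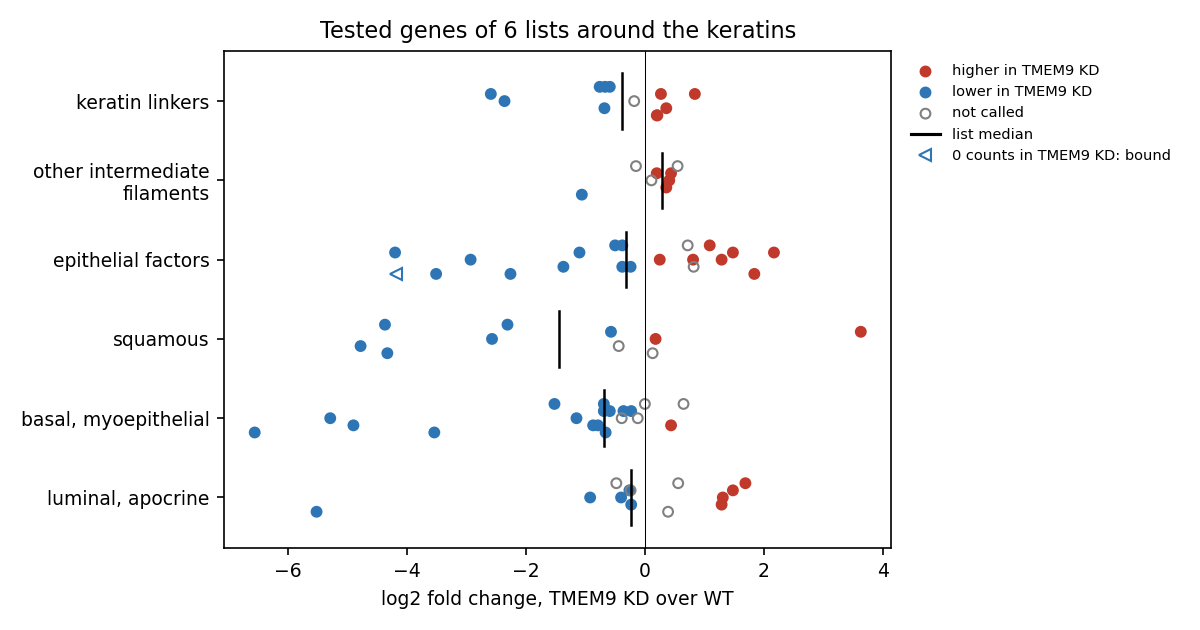
Log2 fold change of TMEM9 KD over WT for every tested gene of 6 lists, with red points for genes that rose, blue for genes that fell, open circles for genes not called by edgeR, a bar at each list's median, and an open triangle for a bound of a gene at 0 counts in TMEM9 KD. The squamous list has the lowest median, -1.44, and the other intermediate filaments the highest, 0.28.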

How the data were processed

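The values deposited by the authors are raw counts per Ensembl gene, 1 column for each of the 4 libraries. The submitters' processing notes name the builds hg19 and mm8 and the tools Bowtie 0.12.2 and CASAVA, with no roles. No source used here gives the counting tool, annotation, strand setting or read length. Per the labels' protocols, libraries came from total RNA by a standard Illumina method. The series text calls the profiles retinal, against the cell line in every label.

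Symbols were found for 45342 genes, and 18749 genes had no count. Counts were tested in edgeR 4.0.16 (R 4.3.3) by its quasi-likelihood F test, with TMM factors, filterByExpr (minimum count 10, minimum total 15), group as the only term and Benjamini-Hochberg adjustment over 14923 genes at 0.05. The model had 2 residual degrees of freedom. The SE was obtained by dividing a log2 fold change's size by the square root of F. CPM divides counts by the TMM-scaled total over tested genes, and per kilobase values divide by the principal transcript of GENCODE 29. That length basis and scaling total were set after values had been seen. Bounds use 3 counts over a group, and ratios have exact Clopper-Pearson 95% intervals. Intervals and floors cover counting error only.

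The 10 keratins, the 9 lists (202 of 205 entries matched) and the naming rule were chosen with earlier results of these data known. The rule names every tested keratin, up to 4 called genes with the largest change from each other list, line markers such as ERBB2, FOXA1 and KRT19, and the nearest genes in pattern. The text gives some of these, and others are not reported here. The fit was tested on simulated counts.

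Libraries of a group were compared before averaging. Their chi-square per degree of freedom came to 4.82 (TMEM9 KD) and 2.04 (WT). Each library was kept as a replicate, though these values cannot show that libraries came from different cultures. The TMEM9 KD pair differed more than the WT pair, while the fit used the same spread for both groups. Alternatives were other scalings (upper quartile, DESeq2 size factors, only library size, the 20 most abundant genes left out), other filters (none, a mean of at least 5 CPM), DESeq2 1.42.0, voom of limma 3.58.1, a test against a 1.5-fold change, a replicate block, and each library left out. For summed keratin levels they were pseudogene counts added to the parent gene, no division by length and the length of all annotated exons. Upstream windows are from RefSeq. Those of KRT6A, KRT7, KRT14, KRT17, KRT18, KRT80 and KRT81 were not used here.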

Additional observations from a re-analysis of the deposited data

How the results depend on the processing

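Over all genes, 8618 were called, and 2803 against a 1.5-fold change, 1111 higher and 1692 lower in TMEM9 KD, and leaving out a library gave 6622 to 8578. Of listed genes, 73 were called, and 37 against a 1.5-fold change, and the count ranged from 63 to 72 without a library. Of other keratins, 1 was called with a mean of at least 5 CPM, as that filter removes the rest, and 4 to 5 without a library. The log2 difference of simple over basal or stress keratins, 0.51, was 0.09 with counts not divided by length and 0.57 with the length of all annotated exons, the last chosen after seeing the data, and 0.49 to 0.53 without a library. Against the subset of 5 it was 4.90, and 5.03 with the length of all annotated exons, also chosen after seeing the data, and 4.87 to 4.92 without a library. The median of the 10 keratins ranged from -1.45 to -1.2 without a library. With a mean of at least 5 CPM that median could not be had, as not all 10 keratins pass. With library size only, 5030 genes were higher and 3730 lower in TMEM9 KD, and luminal genes called were 4 higher and 3 lower, in place of 4 and 5. No called fold change among the named genes changed sign in these alternatives. Deviations of same-numbered libraries from their group means correlated at 0.000474. With 2 libraries a group, this cannot show whether same-numbered libraries were prepared together. A fit with the replicate block called 8437 genes, 4 other keratins and 73 listed genes. For single genes and lists, 822 values stayed on their side of the threshold or within the spread, 20 lost their call in the same direction, 1 gained it and 17 moved. Values with few counts, such as KRT5, KRT16 and NES, are limited by depth, and with 2 libraries a group the spread is estimated largely from other genes.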

Other observations

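Pseudogenes of the simple keratins carried counts as well. The table held 51 pseudogenes of KRT8, of which 25 had counts. Together they had 381 and 376 counts in TMEM9 KD and 145 and 186 in WT, or 8.83% and 7.85% of the KRT8 counts in TMEM9 KD against 3.55% in both WT libraries. Most came from KRT8P12, chosen after its values were seen, with 321 counts in each TMEM9 KD library and 114 and 154 in WT (log2 fold change 1.22, SE 0.145, edgeR adjusted p = 4.23e-12). KRT8 itself overlapped between the groups, so the pseudogene and its parent gene did not show the same difference. Pseudogenes of KRT18 had 46 and 37 counts in TMEM9 KD and 26 and 21 in WT. KRT7-AS, the antisense gene overlapping KRT7, had 110 and 84 counts in TMEM9 KD and 71 and 78 in WT and was not called (edgeR adjusted p = 0.179), though it was without TMEM9 KD replicate 2 (edgeR adjusted p = 0.0368).

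AP-1 and SOX genes of the factor list, named after their values were seen, moved in both directions. FOSL1 rose to 210 and 228 CPM in TMEM9 KD, against 59.1 and 63.0 CPM in WT (log2 fold change 1.84, SE 0.0693, edgeR adjusted p = 8.75e-43), and JUN rose as well (log2 fold change 1.09, edgeR adjusted p = 2.19e-26). JUNB, FOS and FOSL2 fell, with log2 fold changes of -1.10, -1.37 and -0.50 (edgeR adjusted p = 3.06e-22, 9.72e-05 and 5.15e-12). The call of FOSL2 ended against a 1.5-fold change (edgeR adjusted p = 1). JUNB had 39.1 and 46.1 CPM in TMEM9 KD and 91.8 and 90.6 CPM in WT. SOX9 rose to 62.6 and 62.0 CPM in TMEM9 KD, against 13.5 and 14.1 CPM in WT (log2 fold change 2.17, SE 0.102, edgeR adjusted p = 2.01e-35), and SOX15 was not called (log2 fold change 0.72, edgeR adjusted p = 0.234).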
